A study of Homo sapiens with 12 samples.

Results

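GREB1, SDC2, CXCL12, CYBRD1, SPTLC2, ST6GAL1 and OLFM1 are 7 of the 25370 genes in the count table. The first 6 were chosen by their opposite log2 fold changes with anastrozole and E2, from the gene lists that the study made from these libraries for each single treatment against vehicle, and OLFM1 was chosen for its own value in earlier work on the same counts. The opposite directions are therefore a description of the choice, given here without a test. The anastrozole plus E2 libraries did not choose the 6 genes, although the vehicle libraries they are compared with did. That comparison is therefore given with its p-values, as a description, for these 6 genes.

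RNA was sequenced from T47D, an estrogen receptor-positive line from a human breast carcinoma, in 4 groups of 3 libraries lettered a, b and c. The groups received vehicle, anastrozole at 10 nM, E2 at 0.1 nM, or both agents at these doses. All groups had first been kept for 48 h in medium with charcoal-stripped serum, which is depleted of steroids, and then for 24 h without serum. The labels give 12 h of treatment whereas the Methods of the study give 24 h, and the study describes its gene expression data in general as independent experiments. The labels do not say that the lettered libraries came from separate cultures, in which case p-values measure a spread between libraries that may be technical.

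E2 (estradiol) binds the estrogen receptor, ERα, which then activates or represses target genes in breast epithelium. Anastrozole is an inhibitor of aromatase, the enzyme that makes estrogens from androgens, and the study asked whether anastrozole, as a ligand of ERα itself, regulates the same genes as E2. GREB1 is a well-known estrogen-induced gene whose product works with ERα on chromatin, and CXCL12, a chemokine, is likewise known to be induced by estrogen in breast cancer cells. Of the others, SDC2 is a heparan sulfate proteoglycan of the cell surface, OLFM1 a secreted olfactomedin glycoprotein, CYBRD1 a ferric reductase, SPTLC2 a subunit of serine palmitoyltransferase, and ST6GAL1 a sialyltransferase of the Golgi.

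Promoter sequences of 300 bases, from 250 before to 50 after the start site, were taken from RefSeq on GRCh38.p14 and searched on both strands. They were found for CXCL12, CYBRD1, SPTLC2, ST6GAL1 and OLFM1, which have 8 windows among them, but not for GREB1 or SDC2. The full estrogen response element (GGTCA, any 3 bases, TGACC) was in none of the 8 windows and in 0.057% of 35116 promoters. Its half-site AGGTCA was in the CXCL12 window and in 13.8% of all promoters, and the shorter GGTCA, which lies within AGGTCA, was in the CXCL12 and SPTLC2 windows and in 37.4% of all promoters. These 2 windows are printed because they are the ones that held a match, one from a gene that was lower and one from a gene that was higher with anastrozole. Capitals mark GGTCA, which begins at -208 from the start site in CXCL12 (chr10:44385048-44385347, minus strand) and at -197 in SPTLC2 (chr14:77616588-77616887, minus strand). A match of these letters is a description of the sequence, not a binding site.
CXCL12: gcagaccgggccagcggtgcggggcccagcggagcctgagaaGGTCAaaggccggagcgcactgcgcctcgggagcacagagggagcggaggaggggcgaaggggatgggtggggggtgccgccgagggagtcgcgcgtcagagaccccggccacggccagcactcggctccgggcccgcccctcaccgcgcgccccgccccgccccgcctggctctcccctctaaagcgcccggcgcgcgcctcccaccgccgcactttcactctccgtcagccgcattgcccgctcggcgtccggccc
SPTLC2: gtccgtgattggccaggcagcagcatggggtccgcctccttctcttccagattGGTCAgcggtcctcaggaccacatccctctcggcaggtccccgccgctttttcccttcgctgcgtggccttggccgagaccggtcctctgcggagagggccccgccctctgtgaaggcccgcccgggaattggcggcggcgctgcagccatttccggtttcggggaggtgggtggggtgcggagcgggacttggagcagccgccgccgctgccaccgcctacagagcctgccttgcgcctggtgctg

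Reads assigned to genes numbered 9914253 to 17009776 in a library, with a median of 13538621, and the 7 genes had between 923 and 9819 reads each in a library. All 9 luminal and estrogen receptor-positive markers, including KRT8, GATA3 and ESR1, were above 1 CPM (counts divided by the TMM-scaled library size, on the usual CPM scale) in every library. The basal markers KRT5 and KRT14 reached at most 0.0873 and 0.643 CPM, TP63 was between 1.05 and 2.33 CPM, and the endothelial and leukocyte markers reached at most 0.233 CPM. Of 6 fibroblast markers COL1A1 was at 80.0 to 99.9 CPM whereas COL1A2, COL3A1, DCN, LUM and PDGFRB were at most 0.505 CPM. The summed fibroblast markers were 91.7 to 95.9 CPM with vehicle, 85.3 to 93.1 with anastrozole, 80.4 to 91.0 with E2 and 94.9 to 100 with both, and their part in the results was not tested. In these bulk libraries fewer cells of a kind and less RNA per cell cannot be told apart.

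The 7 genes lie on 6 chromosomes of GRCh37, to which hg19 corresponds, and share no exon with another annotated gene. All were well expressed, from percentile 89.8 of the 21132 tested genes for SDC2 to percentile 99.1 for GREB1. Per kilobase of exon, the mean level with vehicle was 46.7 CPM for OLFM1, 46.4 for CXCL12, 42.0 for GREB1, 29.9 for SPTLC2, 28.0 for CYBRD1, 25 for SDC2 and 15.4 for ST6GAL1. GC content of the exons ranged from 41.2% for SPTLC2 to 58.0% for OLFM1. Over 10859 genes Spearman's rho between GC content and the log2 fold change was -0.53 with anastrozole, -0.55 with E2 and -0.03 with both. For the 7 genes, values with each library's GC trend removed (the GC offset) are given in the closing section where they differ by over 1.5 times.

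GREB1 (ENSG00000196208, chr2:11622467-11782914, plus strand) was measured at 508, 532 and 525 CPM with vehicle. It was at 470, 466 and 482 CPM with anastrozole and at 565, 580 and 564 CPM with E2. With both agents it was at 594, 598 and 585 CPM. The 4 groups did not overlap, anastrozole being lowest and the combination highest. Means were 522 ± 12.2, 473 ± 8.29, 570 ± 8.94 and 592 ± 6.35 CPM (SD, n = 3) in the order vehicle, anastrozole, E2 and both. On the log2 scale GREB1 was -0.14 (SE 0.04) with anastrozole and 0.13 (SE 0.03) with E2 against vehicle. GREB1 was chosen for this pattern, and it is itself the 1 gene of 21132 (0.00473%) past the adjusted threshold of 0.05 in opposite directions with the single treatments, so nothing is read from that share. Its anastrozole call passed in 1 of 6 fits with a library left out and was lost with limma-voom and the exact test.

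SDC2 (ENSG00000169439, chr8:97506041-97624018, plus strand) was at 102 CPM in each of the 3 vehicle libraries. It was at 92.6, 93.3 and 92.5 CPM with anastrozole, at 124, 120 and 119 CPM with E2, and at 114 CPM in each library with both. No groups overlapped, and the combination lay between vehicle and E2. The counting error of a single library, 2.22% to 3.29%, exceeded the spread of the vehicle libraries (SD 0.149 CPM), so the SD of this gene understates its error. The log2 fold change against vehicle was -0.14 (SE 0.05) with anastrozole and 0.25 (SE 0.04) with E2.

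CXCL12 (ENSG00000107562, chr10:44865613-44881941, minus strand), the ligand of the receptors CXCR4 and ACKR3, was at 281, 285 and 287 CPM with vehicle. It was at 259, 263 and 253 CPM with anastrozole and at 301, 298 and 308 CPM with E2. With both agents it was at 297, 303 and 299 CPM. Every anastrozole library was below, and every library with E2 above, the vehicle libraries, whereas E2 and the combination overlapped. The log2 fold change against vehicle was -0.14 (SE 0.04) with anastrozole and 0.09 (SE 0.03) with E2.

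OLFM1 (ENSG00000130558, chr9:137967268-138013026, plus strand) was at 287, 276 and 296 CPM with vehicle and at 274, 270 and 265 CPM with anastrozole. It was at 364, 374 and 366 CPM with E2 and at 355, 342 and 357 CPM with both. The groups did not overlap, but the highest anastrozole library and the lowest vehicle library were 274 and 276 CPM. The log2 fold change was 0.36 (SE 0.03) with E2, the largest of the 7 genes, and -0.09 (SE 0.04) with anastrozole. With each library's trend on GC content removed, the anastrozole value was -0.0034. With both agents it was 0.30 (SE 0.04), given as a description since the gene was picked for its value.

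CYBRD1 (ENSG00000071967, chr2:172378757-172414639, plus strand), which reduces ferric iron at the cell surface, was at 140, 145 and 149 CPM with vehicle and at 157, 156 and 150 CPM with anastrozole. It was at 142, 139 and 131 CPM with E2 and at 132, 132 and 133 CPM with both. The anastrozole libraries were above those with vehicle by a narrow gap, the E2 libraries overlapped with vehicle, and the combination libraries lay below vehicle. The log2 fold change against vehicle was 0.09 (SE 0.05) with anastrozole and -0.08 (SE 0.04) with E2.

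SPTLC2 (ENSG00000100596, chr14:77972340-78082980, minus strand), which with SPTLC1 forms the enzyme of the first step of sphingolipid synthesis, was at 363, 371 and 368 CPM with vehicle. It was at 406, 401 and 379 CPM with anastrozole, at 330, 342 and 340 CPM with E2, and at 331, 340 and 349 CPM with both. Anastrozole replicate c was nearer to vehicle than the other two. The E2 and combination libraries overlapped with each other, and neither overlapped with vehicle. The log2 fold change against vehicle was 0.11 (SE 0.04) with anastrozole and -0.12 (SE 0.03) with E2.

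ST6GAL1 (ENSG00000073849, chr3:186648114-186796341, plus strand), which adds sialic acid to the galactose ends of N-linked glycans, was at 173, 171 and 171 CPM with vehicle. It was at 196, 192 and 196 CPM with anastrozole, at 165, 162 and 166 CPM with E2, and at 162, 162 and 165 CPM with both. Anastrozole stood above the other groups, at 114% of the vehicle mean, while E2 and the combination overlapped at 95.9% and 95% of it. The log2 fold change against vehicle was 0.18 (SE 0.05) with anastrozole and -0.06 (SE 0.04) with E2.

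**Figure D1:**
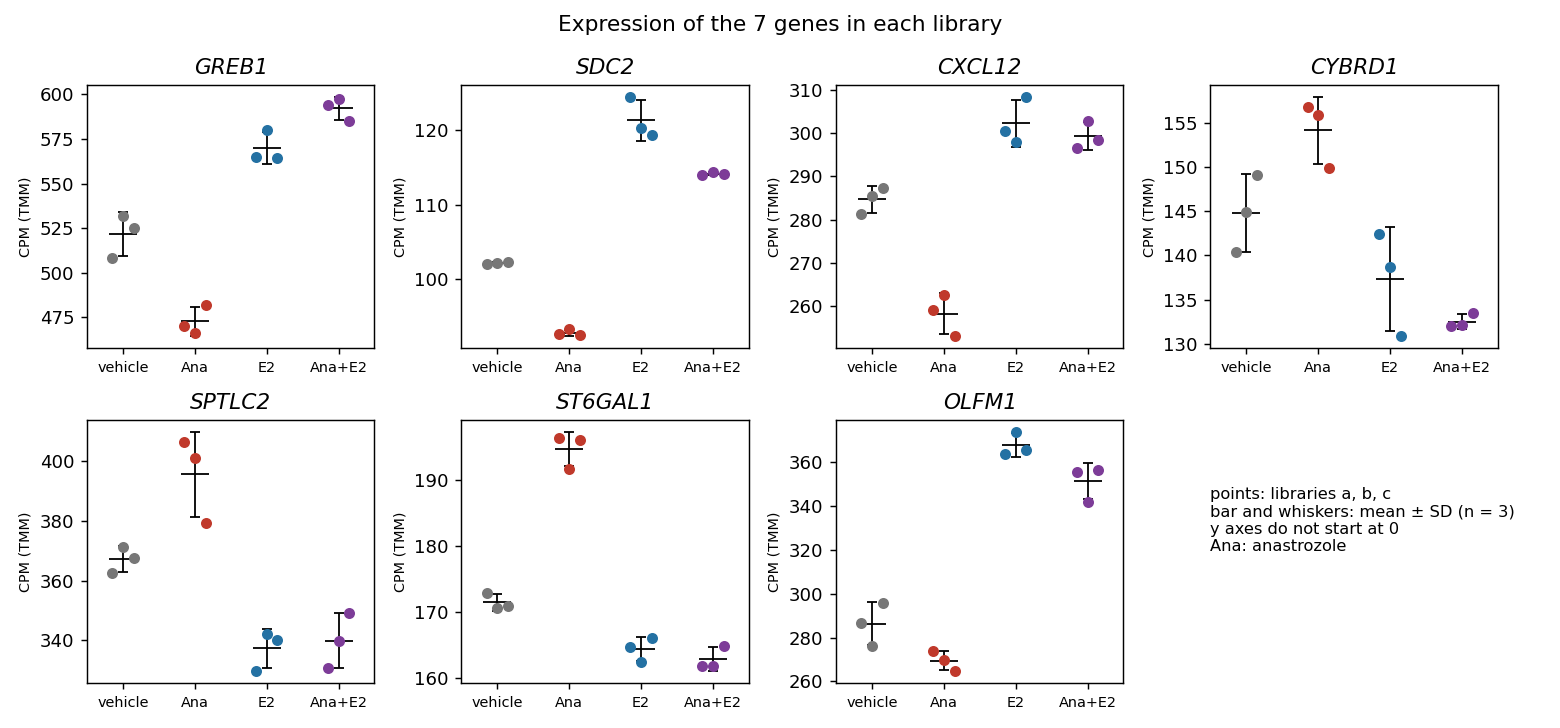
CPM of the 7 genes in each library, 1 panel per gene, with the 4 groups on the x axis, points for libraries and a bar with whiskers for the mean ± SD (n = 3); the y axes do not start at 0. In all 7 panels anastrozole lies on one side of the vehicle mean and E2 and the combination on the other.

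Of the 7 genes, 3 (GREB1, CXCL12 and ST6GAL1) were past the threshold with anastrozole, against 3.67% of all genes and 11.0% of the 3885 genes of at least 6 log2 CPM, the level that all 7 exceed. All 7 had anastrozole libraries clear of the vehicle libraries, 3 higher and 4 lower, against 31.3% of the 3885 genes. With E2, 4 (GREB1, SDC2, SPTLC2 and OLFM1) were past the threshold, against 12.0% of all genes and 33.8% of the 3885, and 6 were clear of vehicle, against 48.9%. Directly between anastrozole and E2, all 7 were past the threshold, against 1.33% of all genes and 4.94% of the 3885, and all 7 were clear, against 22.8%. The CYBRD1 call was lost with DESeq2, limma-voom and the replicate letter as block. It was also lost in 4 of 6 fits with a library left out (without anastrozole a or b, or E2 b or c). These contrasts chose the genes, so nothing is read from the counts. The anastrozole calls depended on the test and on single libraries, since none of the 7 was called by limma-voom or without vehicle replicate c, and GREB1 and CXCL12 each passed in 1 of 6 fits with a library left out. CXCL12 also missed the threshold with DESeq2, edgeR's exact test, edgeR's filterByExpr and the replicate letter as block. Anastrozole replicates a and c differed more than any other pair of replicates (a chi-square of 4.83 for each degree of freedom, the other pairs being at 1.28 to 2.65), and without replicate c SPTLC2 was 0.14 and past the threshold.

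With anastrozole plus E2, GREB1 and SDC2 rose and CYBRD1 and SPTLC2 fell against vehicle. Because the vehicle libraries took part in choosing the genes, these values and their p-values are descriptions. GREB1 was higher by 0.18 on the log2 scale (SE 0.03, adjusted p = 4.26e-06, edgeR's quasi-likelihood test) and SDC2 by 0.16 (SE 0.04, adjusted p = 0.00978). CYBRD1 fell by 0.13 (SE 0.04, adjusted p = 0.0389) and SPTLC2 fell by 0.11 (SE 0.03, adjusted p = 0.03). CXCL12 was 0.07 (SE 0.04, 95% interval 0.00 to 0.14, adjusted p = 0.31) and ST6GAL1 was -0.07 (SE 0.04, 95% interval -0.15 to 0.00, adjusted p = 0.359), neither past the threshold. CXCL12 passed with a filter at 7 log2 CPM (0.0866, adjusted p = 0.0498). All 6 genes had the direction of E2, and in each the 3 combination libraries were clear of the 3 vehicle libraries. The E2 and combination comparisons share the vehicle libraries, so nothing is read from this agreement in direction.

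Of the 6 genes, 4 were past the threshold in this comparison, against 5.04% of all genes and 13.1% of the 3885, and all 6 were clear of vehicle, against 30.4% of the 3885. The vehicle libraries helped to choose the genes, so nothing is read from these counts. The GREB1 and SDC2 calls held in all 6 fits that left out a library, although SDC2 missed the threshold with DESeq2 (adjusted p = 0.0723). CYBRD1 and SPTLC2 kept their direction but passed in 1 of those 6 fits, their adjusted p being 0.295 and 0.155 without vehicle replicate c, 0.0639 and 0.0853 without vehicle b, and 0.084 and 0.137, 0.164 and 0.144, and 0.122 and 0.0556 without combination a, b and c. Both also missed it with limma-voom, edgeR's exact test and a fit of all 12 libraries, and CYBRD1 with DESeq2.

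**Figure D2:**
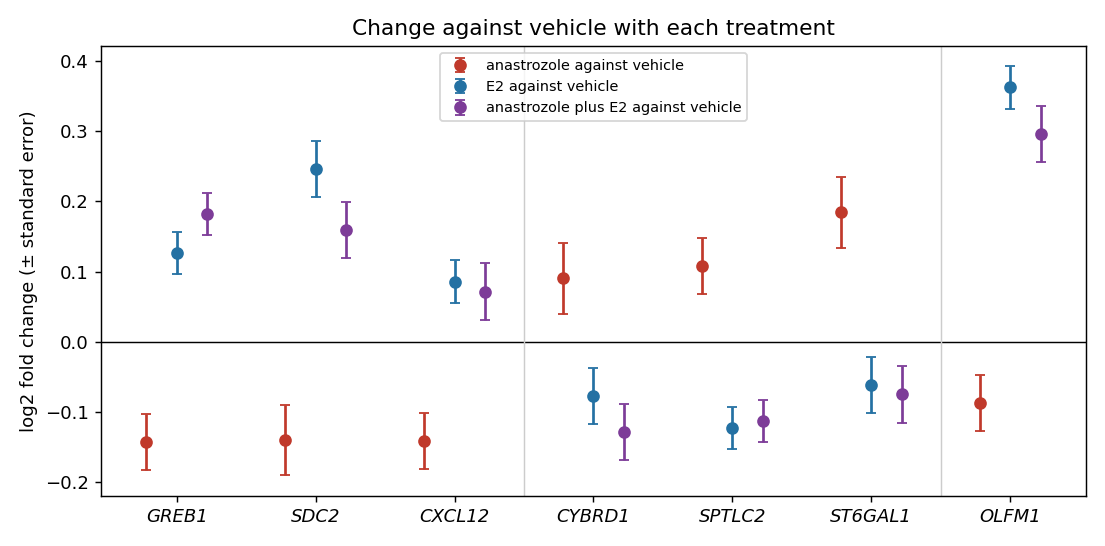
Log2 fold change against vehicle (y axis) of each gene with anastrozole, E2 and both, with whiskers of 1 standard error; the 3 comparisons share the vehicle libraries. The combination lies on the side of E2 for all 7 genes, from -0.13 for CYBRD1 to 0.30 for OLFM1.

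With anastrozole added to E2, the 7 genes differed from their level with E2 alone by at most 0.09 on the log2 scale, or by at most 0.15 with the GC trend removed. In anastrozole plus E2 against E2 none was past the threshold, against 6.74% of all genes and 23.5% of the 3885, and SDC2 and OLFM1 (2 of 7) had an unadjusted p under 0.05 in edgeR. None was past the threshold with DESeq2, limma-voom or the exact test. GREB1 was past it with a filter at 7 log2 CPM (0.0805). Spearman's rho between GC content and this comparison was 0.68, and with the GC offset OLFM1 was -0.15 and past the threshold while SDC2 was -0.0274 and GREB1 0.0199. The log2 difference was 0.06 for GREB1 (95% interval -0.00 to 0.11), -0.09 for SDC2 (-0.16 to -0.01) and -0.07 for OLFM1 (-0.13 to -0.01). These 3 genes had libraries clear of each other, GREB1 above and SDC2 and OLFM1 below E2 alone, against 45.0% of the 3885 genes. For CXCL12 (-0.08 to 0.05), CYBRD1 (-0.12 to 0.02), SPTLC2 (-0.05 to 0.07) and ST6GAL1 (-0.08 to 0.06) the libraries overlapped, and these intervals allow differences of either sign. The E2 libraries took part in choosing the genes, so these values are descriptions.

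With E2 added to anastrozole, all 7 genes lay on the E2 side of their level with anastrozole alone. In anastrozole plus E2 against anastrozole the log2 difference was 0.32 for GREB1, 0.30 for SDC2, 0.21 for CXCL12 and 0.38 for OLFM1. It was -0.22 for CYBRD1, -0.22 for SPTLC2 and -0.26 for ST6GAL1. All 7 were past the threshold, against 2.90% of all genes and 8.78% of the 3885, and all 7 were clear, against 30.6% of the 3885. Since the anastrozole libraries chose the genes, nothing is read from these counts.

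**Figure D3:**
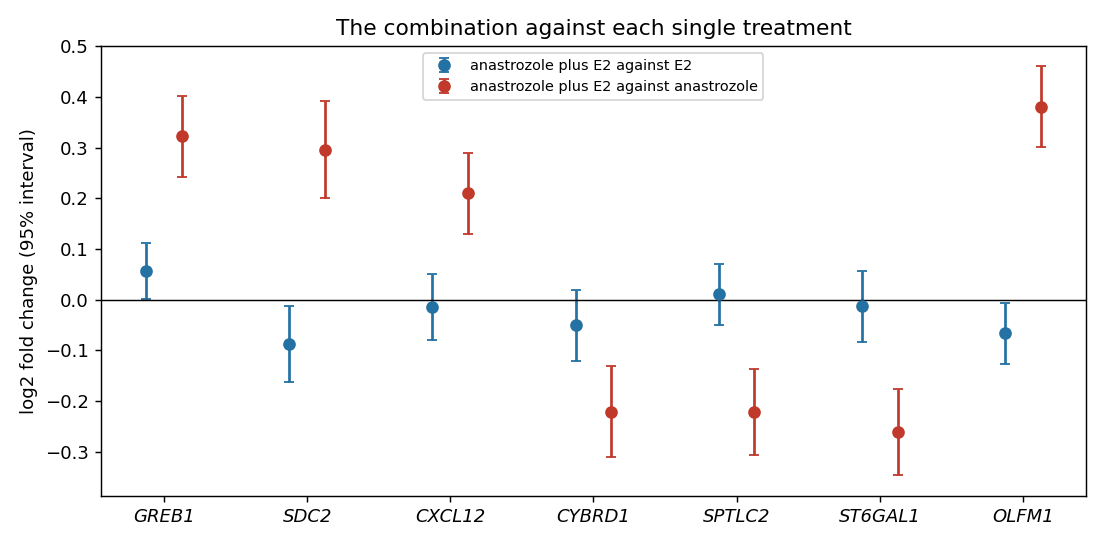
Log2 fold change of anastrozole plus E2 against E2 alone and against anastrozole alone (y axis, with 95% intervals) for each gene; both comparisons share the combination libraries. Against E2 the values lie between -0.09 and 0.06, and against anastrozole between -0.26 and 0.38.

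The interaction term gives how far the combination departs from the sum of both single effects. It was 0.20 (SE 0.05) for GREB1, 0.13 (SE 0.05) for CXCL12, 0.05 (SE 0.06) for SDC2 and 0.02 (SE 0.05) for OLFM1. It was -0.20 (SE 0.06) for ST6GAL1, -0.14 (SE 0.06) for CYBRD1 and -0.10 (SE 0.05) for SPTLC2. GREB1 and ST6GAL1 were past the threshold, 2 of 7 against 10.9% of all genes and 31.7% of the 3885. The single treatments that chose the genes enter this term, and across 10859 genes it had a Spearman's rho with GC content of 0.71. With the GC offset GREB1 was 0.12 and no longer past the threshold, SPTLC2 was 0.0215, OLFM1 was -0.14 and past it, and ST6GAL1 stayed past it.

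Over the 12 libraries Pearson's r of log2 CPM was from 0.88 to 0.96 among GREB1, SDC2, CXCL12 and OLFM1, from 0.85 to 0.91 among CYBRD1, SPTLC2 and ST6GAL1, and from -0.97 to -0.81 across these groups. The libraries share treatment groups, so r describes mainly the group means, on which the genes were chosen, and the signs of r were fixed by that choice. Among 11044 genes of at least 3 log2 CPM, the genes most alike in pattern were FKBP4 (r = 0.96) and ACOX2 (0.94) for GREB1, DPY19L1 (0.94) and SERPINA6 (0.94) for SDC2, and PRADC1 (0.94) and CA12 (0.93) for CXCL12. They were SERPINA6 (0.97) and B4GALT1 (0.96) for OLFM1, MRFAP1L1 (0.93) and CD24 (0.92) for CYBRD1, and ZMYND8 (0.95) and PLK2 (0.94) for ST6GAL1. For SPTLC2 they were SPTLC3 (0.94), which also encodes a serine palmitoyltransferase subunit, and BTD (0.92). SPTLC3 was at means of 26.7, 29.0, 24.8 and 24.9 CPM with vehicle, anastrozole, E2 and both.

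Other genes known to be induced by estrogen gave the setting for GREB1. Of 33 tested from a list without the 7 genes, none rose and 4 fell with anastrozole, 15 rose and 2 fell with E2, and 18 rose and none fell with both, beside 3.67%, 12.0% and 5.04% of all genes and 11.0%, 33.8% and 13.1% of the 3885 past the threshold in these comparisons. The list median was -0.05, 0.15 and 0.17 on the log2 scale, beside 0.00 for all genes in each comparison. The GC trend was not removed from the counts and values of this list or the later lists. Spearman's rho of the log2 fold change with GC content was -0.53, -0.55 and -0.03 in these comparisons. Its part in the list results was not tested. At an unadjusted p under 0.05 in edgeR, 2 were higher and 10 lower with anastrozole and none was lower with both, and the count of 4 that fell with anastrozole was 2 with DESeq2 or the exact test and 0 with limma-voom. With E2 DESeq2 called 9 higher and 1 lower, limma-voom 10 and 0, and the exact test 13 and 1. With both agents those tools called 11 to 15 higher and 0 lower. The 4 that fell with anastrozole, named after their values were seen, were PGR (-0.13), TFF3 (-0.24), ADCY9 (-0.22) and SLC7A5 (-0.16). TFF3 also fell with E2 (-0.18) and was 0.07 with both. With E2 and both, ADCY9 was -0.07 and -0.02, and SLC7A5 was -0.03 and 0.06. PGR, the progesterone receptor, was 0.06 with E2 (adjusted p = 0.101, edgeR) and -0.01 with both (adjusted p = 0.934). EGR3, a transcription factor, rose by 0.75 with E2 and 1.04 with both, and RBBP8 rose by 0.36 and 0.27, while their values with anastrozole were -0.09 and 0.03. WISP2, a secreted protein of the CCN family, rose by 0.89 and 0.94 and was 0.31 with anastrozole. TFF1 was at 1.65 ± 0.443 CPM with vehicle and was past the threshold in none of the 3 comparisons.

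**Figure D4:**
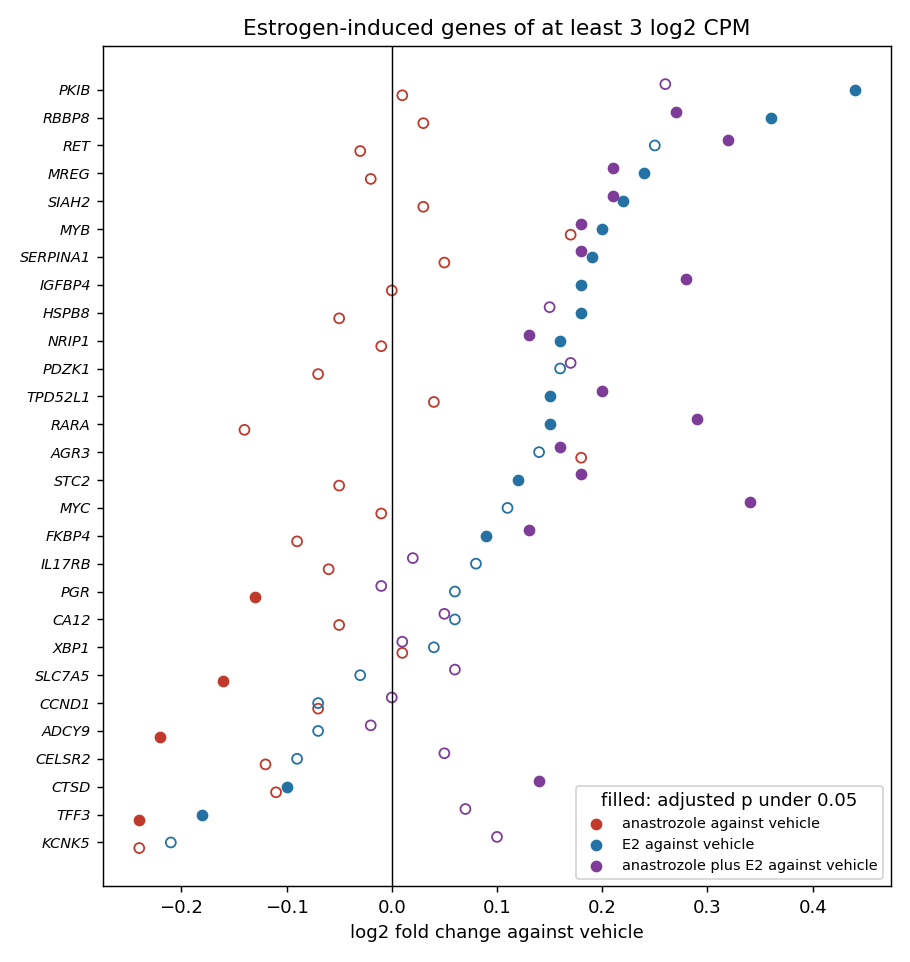
Log2 fold change against vehicle (x axis) of the 28 estrogen-induced genes of at least 3 log2 CPM, ordered by their value with E2, with filled points past the adjusted threshold of 0.05. PGR, TFF3, ADCY9 and SLC7A5 are the filled anastrozole points, all below 0.

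Among 16 genes of the estrogen receptor and its partners, 2 rose and 6 fell with E2 (none and 5 with DESeq2, none and 3 with limma-voom, 1 and 5 with the exact test), beside 12.0% of all genes and 33.8% of the 3885, and the list medians were -0.01, -0.08 and -0.04 with anastrozole, E2 and both. None passed with anastrozole or with both in edgeR, DESeq2, limma-voom or the exact test, where 5 and 4 had an unadjusted p under 0.05 in edgeR. ESR1, which encodes ERα, fell by 0.14 with E2 (adjusted p = 0.00381, edgeR) and was -0.02 with anastrozole and -0.08 with both.

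For the pathway partners of the other members, values in a row of 3 are with anastrozole, E2 and both. Their counts stand beside the same shares of all genes and of the 3885 as above. Of 31 genes of syndecans and heparan sulfate, 1 fell with anastrozole, 5 rose and 2 fell with E2, and 3 rose and 1 fell with both, with medians of 0.01, 0.06 and 0.03. NDST1, a heparan sulfate sulfotransferase, fell by 0.14, 0.30 and 0.14 in edgeR, and SDCBP, which binds the tails of syndecans, rose by 0.23 with E2 and 0.14 with both. With anastrozole no gene of the list passed with DESeq2, limma-voom or the exact test, with E2 DESeq2 and limma-voom each called 3 higher and 2 lower, and with both agents none rose with DESeq2 or limma-voom. The syndecans SDC1 (-0.12, -0.07 and -0.00) and SDC4 (0.09, 0.04 and 0.02) did not pass in any of the 3. The receptors of CXCL12 were low, CXCR4 at 7.86 ± 0.502 CPM and ACKR3 at 0.209 CPM with vehicle, and neither they nor the peptidase DPP4 passed in edgeR, DESeq2, limma-voom or the exact test, 0 of 3 having an unadjusted p under 0.05. The medians of these 3 genes were 0.29, 0.11 and -0.11, all from levels under 3 log2 CPM.

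Of 31 genes of sphingolipid synthesis, 1 rose and 1 fell with anastrozole, 3 rose and 4 fell with E2, and 2 rose and 5 fell with both, with medians of -0.00, -0.03 and -0.04. UGCG, which makes glucosylceramide, rose by 0.19, 0.35 and 0.27, and DEGS2, a dihydroceramide desaturase, fell by 0.35, 0.49 and 0.33 in edgeR. With anastrozole no gene of the list passed with DESeq2 or limma-voom, and with both agents DESeq2 called 1 higher and 4 lower and limma-voom 1 and 2. SPTLC1 (0.07, 0.07 and -0.02) and SPTLC3 (0.11, -0.10 and -0.11) did not pass. Of 27 genes of sialylation, none passed with anastrozole in edgeR, DESeq2, limma-voom or the exact test (1 had an unadjusted p under 0.05 in edgeR), 1 rose and 2 fell with E2, and 2 rose and 2 fell with both. Their medians were -0.00, 0.02 and -0.02. B4GALT1, which adds the galactose that ST6GAL1 caps, rose by 0.34 with E2 and 0.35 with both, and was -0.01 with anastrozole. ST3GAL1, another sialyltransferase, fell by 0.18 with E2 and 0.15 with both in edgeR, and was 0.06 with anastrozole. With both agents DESeq2 and limma-voom called 1 of the list higher and 0 lower.

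Of 25 genes of iron uptake and reduction, 2 rose and 1 fell with anastrozole, 6 rose and 3 fell with E2, and 2 rose and 2 fell with both, with medians of 0.04, 0.01 and 0.01. FTL, the ferritin light chain, rose by 0.23, 0.13 and 0.23 in edgeR, although limma-voom called 0 of the list with anastrozole. STEAP3, a metalloreductase, fell by 0.40 with E2 and was -0.15 with anastrozole and -0.21 with both, and STEAP2, of the same family, fell by 0.25 with E2 and by 0.25 with both and was at 0.00 with anastrozole. With both agents limma-voom called 0 of the list lower. TFRC, the transferrin receptor, rose by 0.23 with E2 and was 0.10 with anastrozole and 0.04 with both. Of 6 tested olfactomedins besides OLFM1, OLFML3 fell by 0.17 with anastrozole, and no other passed in any of the 3 comparisons, where 3, 2 and 2 had an unadjusted p under 0.05 in edgeR. With DESeq2 or the exact test 1 gene of the list fell with anastrozole and with limma-voom 0, and the list medians were 0.04, 0.17 and 0.57, with 3 of the 6 genes under 3 log2 CPM.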

How the data were processed

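RNA-seq counts of 12 T47D libraries were analysed. The authors aligned reads to hg19 with TopHat2 2.0.14 and Bowtie2 2.2.6 and deposited whole-number counts per gene from HTSeq, without normalization; the counting options and annotation are not given in the sources used here. The labels give polyA RNA, whereas the library protocol describes total RNA. The 5 summary lines, 66.5% to 67.3% of reads, were left out of library sizes.

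The members and gene lists were chosen with earlier results of these data known. The 4238 genes with 0 counts throughout were removed. Pairs of groups were fitted on their 6 libraries, and the interaction on all 12, with edgeR 4.0.16 in R 4.3.3 (TMM, robust quasi-likelihood F test, 2-sided, Benjamini-Hochberg adjustment over 21132 genes, threshold 0.05). The tests were tested on simulated data. Standard errors are the log2 fold change over the square root of F. Named genes were the 7 members, at most 6 passing genes per list with the largest change plus fixed partners, the 2 genes most alike to each member, and any gene called oppositely with the single treatments; of the list genes, those printed are a selection made after their values were seen, as were the further genes of the closing section. Alternatives used DESeq2 1.42.0, limma 3.58.1, other filters and scaling, the replicate letter as block, a GC offset, all 12 libraries, and each library left out. Gene positions came from GENCODE on GRCh37.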

Additional observations from a re-analysis of the deposited data

Results flagged for a closer look

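GREB1 had an interaction term of 0.20 on the log2 scale, which was past the threshold in the fit of 12 libraries. The difference between libraries with and without E2 was 0.32 in the presence of anastrozole and 0.13 in its absence.

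ST6GAL1 had an interaction term of -0.20, also past the threshold, the corresponding differences being -0.26 and -0.06. Both genes were chosen on single-treatment differences that enter this term, so the values and calls are descriptions. With the GC offset the GREB1 term was 0.12 and no longer past the threshold.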

How the results depend on the processing

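No member changed sign against vehicle, with any of the 3 treatments, under any alternative or with any library left out. The number of the 7 members past the threshold with anastrozole was 3, but 0 with limma-voom, 1 with edgeR's exact test and 0 to 4 with a library left out. With both agents it was 5, but 3 with DESeq2, limma-voom, the exact test or all 12 libraries, and 3 to 5 with a library left out. In the combination against E2 it was 0, but 1 with a filter at 7 log2 CPM (GREB1), 1 with the GC offset and 1 with that offset and the replicate block (OLFM1 in both). For the interaction it was 2, but 4 with the block and the GC offset, and 2 to 3 with a library left out. With the GC offset, SDC2 was -0.19 with anastrozole and passed (adjusted p = 0.00271), CYBRD1 was -0.12 with E2 and passed (adjusted p = 0.0116), and OLFM1 with anastrozole was -0.0034. The offset also moved, with anastrozole, SPTLC2 from 0.11 to 0.0563 and CYBRD1 from 0.0904 to 0.0546, and, with E2, SPTLC2 from -0.12 to -0.19. In the combination against E2 it moved GREB1 to 0.0199, SDC2 to -0.0274, CXCL12 to -0.00709, CYBRD1 to -0.00434, SPTLC2 to 0.0779, ST6GAL1 to -0.0084 and OLFM1 to -0.15. In the interaction it moved GREB1 to 0.12, SDC2 to 0.16 and CYBRD1 to -0.0593. The filter at 7 log2 CPM left out SDC2, and with it CXCL12 passed with E2 (0.0797), with both agents and in the interaction (0.16). The cause of these changes was not tested.

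Some values changed sign. In the combination against E2, CXCL12 was 0.0108 and ST6GAL1 0.0114 with the filter at 7 log2 CPM, CXCL12 ranged from -0.0224 to 8.12e-04 with a library left out (the latter without E2 replicate c), and SPTLC2 from -0.00795 to 0.0275 (-0.00524 without E2 a and -0.00795 without combination c). In the interaction, SPTLC2 was 0.0215 with the GC offset and 0.0214 with offset and block, and OLFM1 was -0.14 with each of these, past the threshold in both, and ranged from -0.00665 (without vehicle c) to 0.0427 with a library left out.

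Same-letter correlations of deviations ranged from -0.14 to 0.32. For replicate a they were 0.20 in anastrozole against E2, 0.31 in the combination against E2 and 0.32 in the combination against anastrozole. Against vehicle they were -0.08, -0.09 and 0.07 for replicate a with anastrozole, E2 and both. With 3 libraries in a group these values do not settle whether the letters pair the libraries. With the letter as a replicate block CXCL12 with anastrozole had an adjusted p of 0.0501 and CYBRD1 in anastrozole against E2 one of 0.0644, and genes past the threshold in anastrozole against E2 numbered 180 in place of 280.

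Over all genes, calls were 776 with anastrozole (15 with limma-voom to 1229 with all 12 libraries), 2537 with E2 (724 with the filter at 7 log2 CPM to 2603) and 1065 with both (270 with that filter to 1592). With a library left out they were 191 to 1653 (the latter without anastrozole c), 1743 to 2814 and 682 to 967. Genes past the threshold numbered 280 for anastrozole against E2 (70 to 515), 1424 for the combination against E2 (186 to 1487), 612 for the combination against anastrozole (90 to 823) and 2295 for the interaction (551 to 2300). With a library left out these were 107 to 415, 888 to 1181, 236 to 1707 and 1537 to 3206, the highest of each of the last pair being without anastrozole c. Counting error alone was 1.01% to 3.29% per library and member.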

Other observations

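Among 3885 genes of at least 6 log2 CPM, 19 had opposite signs and an unadjusted p under 0.05 with both single treatments, and 5 of the 19 were members. Of the 19, only GREB1 was past the adjusted threshold with both single treatments. The comparisons share the vehicle libraries and the genes were picked by these values, so no test is given. The other 14 are described by their log2 fold changes with anastrozole, E2 and both.

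RARA, a retinoic acid receptor, was at -0.14, 0.15 and 0.29, FKBP4, a co-chaperone of steroid receptors, at -0.09, 0.09 and 0.13, GRIK3 at -0.12, 0.10 and 0.19, and TUBA1A at -0.12, 0.10 and 0.11. PGR was at -0.13, 0.06 and -0.01, FMN1 at -0.10, 0.17 and 0.07, and INSIG1 at -0.14, 0.14 and -0.03. HMGCS1 was at -0.13, 0.08 and -0.07, MSMO1 at -0.10, 0.11 and -0.09, and FDFT1 at -0.09, 0.09 and 0.01. With the reverse order of the single treatments, BAMBI was at 0.12, -0.17 and -0.11, NPNT at 0.12, -0.16 and -0.09, CLMN at 0.16, -0.08 and -0.02, and DSP at 0.10, -0.07 and -0.04.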
